A study of Mus musculus with 6 samples.

Results

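Transcripts of the UDP-glucuronosyltransferases (UGT), cytosolic sulfotransferases (SULT) and glutathione S-transferases (GST) were compared between whole livers of mice without profilin 2 (Pfn2-/-), an actin-binding protein, and whole livers of wild-type mice. Members were all genes with a symbol of the Ugt1 to Ugt3, Sult or Gst families whose array row names exactly 1 gene, 49 of 22180 genes tested, picked by symbol. They comprised 10 UGT, 21 SULT and 18 GST genes, each with 1 row. A further 14 symbols of these families, among them 8 of the Ugt1a locus, occur only in rows that name several genes and were not analysed here as genes. All animals were of strain C57BL/6. The 3 Pfn2-/- livers (replicates 1, 2 and 3) came from mice of 9, 8.5 and 8 months, and the 3 wild-type livers from mice of 9, 8.5 and 8 months. The labels call them independent biological replicas. Neither the animals' sex nor the way Pfn2 was disrupted is stated in the labels.

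These enzymes carry out the conjugation phase of detoxification. UGTs, in the endoplasmic reticulum membrane, transfer a sugar, mostly glucuronic acid from UDP-glucuronic acid, to bilirubin, steroids, bile acids and drugs. SULTs transfer sulfate from the donor PAPS to phenols, steroids and bile acids, and GSTs add glutathione to electrophiles. In rodent liver many of these genes respond to xenobiotic receptors such as CAR, PXR and AHR, to the oxidant-responsive factor NRF2, and to the sex-dependent pattern of growth hormone.

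Of the 10 UGT genes, 8 follow one another in the reference order of the members, 7 of them of the Ugt2b subfamily. Genes without a row of their own are not counted in this order. The bases just before the annotated transcript start are shown for 5 of these 7 genes, because the windows of the 3 genes Ugt2b38, Ugt2b37 and Ugt2b5 are close copies of each other. All are from RefSeq, build GRCm38.p6, written 5′ to 3′ on the strand of the gene, and end 1 base before the start. Capitals mark the letters GTTATANTTTAAC.
Ugt2b38, chr5:87424204-87424303, minus strand: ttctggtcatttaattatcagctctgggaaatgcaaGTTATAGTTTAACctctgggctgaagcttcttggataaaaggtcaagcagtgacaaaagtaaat
Ugt2b37, chr5:87254789-87254888, minus strand: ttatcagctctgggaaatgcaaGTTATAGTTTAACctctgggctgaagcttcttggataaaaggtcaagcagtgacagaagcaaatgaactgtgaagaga
Ugt2b5, chr5:87140341-87140440, minus strand: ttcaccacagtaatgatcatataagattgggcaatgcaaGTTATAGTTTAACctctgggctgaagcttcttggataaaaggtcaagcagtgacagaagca
Ugt2b35, chr5:87000760-87000859, plus strand: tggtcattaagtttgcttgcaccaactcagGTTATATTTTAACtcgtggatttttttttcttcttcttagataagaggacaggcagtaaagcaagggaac
Ugt2b1, chr5:86926504-86926603, minus strand: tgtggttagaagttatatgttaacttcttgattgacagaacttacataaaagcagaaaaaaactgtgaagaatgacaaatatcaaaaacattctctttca

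Over whole windows of 300 bases (250 before the start and 50 after it), Ugt2b38 and Ugt2b37 were 87.3% identical, Ugt2b38 and Ugt2b5 84.2%, and Ugt2b37 and Ugt2b5 76.5%. The other 18 pairs of Ugt2b windows were 50.3% to 63.5% identical. Identity is the share of identical columns in a global alignment with gaps, of 310 to 360 columns. Windows of unrelated genes were not aligned, so these percentages have no background beside them. An unbroken run of 62 bases is shared by Ugt2b38, Ugt2b37 and Ugt2b5. The letters GTTATANTTTAAC were taken from the Ugt2b38 window, as the run of 13 letters with 1 free position that most Ugt2b windows hold. Ties were settled by the fewest windows of the table that hold the run. Both counts below were thus part of the choice and are no test of it. Searched on both strands, they occur in 5 of the 7 Ugt2b windows (the fifth is Ugt2b36) and in 6 of the 32851 windows of the table, or 0.0183%. Promoter windows existed for 42 of the 49 members and 9 of the 10 UGT genes. Of 4 motifs of factors known to act on conjugation genes, searched on both strands, the antioxidant response element TGACNNNGC was in 0 of 9 UGT, 0 of 17 SULT and 2 of 16 GST genes (Gsta3 and Gstm7), against 14% of all genes in the table. The AHR core GCGTG was in 0, 3 and 3 of them, against 35.2% of all genes. The STAT letters TTCNNNGAA were in 0, 1 and 1, against 9.55%, and the full palindromic HNF1 motif in none, against 0.0111%. The shorter HNF1 motif GTTAAT, a search added later, was in 2, 7 and 1 of them, against 8.24%. A match or its absence describes the letters of the window alone.

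Expression values are RMA values on a log2 scale, with array medians of 4.36 to 4.41. Differences are Pfn2-/- minus wild type on that scale, and their standard errors (SE) come from limma. Adjusted p-values are by Benjamini-Hochberg over all 22180 genes. Since rows differ in how their probes bind, values are compared between groups within a row and not between rows. Arrays of one genotype correlated across rows at 0.98 to 0.988, and arrays of unlike genotypes at 0.98 to 0.986 (rows are not replicates). Pfn2 itself was dim, at 3.88, 3.81 and 3.93 in Pfn2-/- liver, against 4.02, 3.85 and 4.09 in wild type, so its row does not check the genotype labels. All 12 hepatocyte markers lay above the median gene, and their mean was 10.74 to 10.83 in Pfn2-/- and 10.74 to 10.97 in wild-type arrays. The means of the Kupffer cell, endothelial, stellate, leukocyte and other-organ lists overlapped between the genotypes, and of the red cell list only Slc4a1 was measured. In these lists the hepatocyte gene Ass1 (difference -0.49) and the stellate and fibroblast gene Col3a1 (-0.30) were at an unadjusted p under 0.05. The 5 measured cholangiocyte markers averaged 4.55 to 4.65 in Pfn2-/- and 4.39 to 4.42 in wild-type arrays, with Sox9 (difference 0.58) and Cftr (0.33) at an unadjusted p under 0.05, while the groups overlapped for the defining markers Krt19, Krt7 and Epcam, all of them dim. Their part in the results below was not tested. In whole liver, fewer cells of a type and less RNA per cell cannot be told apart.

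No conjugation enzyme gene passed an adjusted p of 0.05 by limma, as none of the 22180 genes did (0%). At an unadjusted p under 0.05, which serves here as a description, 11 of the 49 genes stood out, 8 higher and 3 lower in Pfn2-/- liver, or 22.4% against a background of 5.29% of all genes. Higher genes made up 2.67% and lower genes 2.62% of all genes. Groups did not overlap in 8 higher and 4 lower members, against 9.85% of all genes in either direction, 5.09% higher and 4.76% lower. By class, the genes at an unadjusted p under 0.05 were 6 of 10 UGT genes, all higher, 3 of 21 SULT genes (2 higher, 1 lower) and 2 of 18 GST genes, both lower. The median difference was 0.39 over UGT, 0.0067 over SULT and -0.082 over GST genes, beside 0 over all genes. Neighbouring paralogs in these families have alike transcripts, so their rows may share signal, and the genes are not independent counts.

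**Figure D1:**
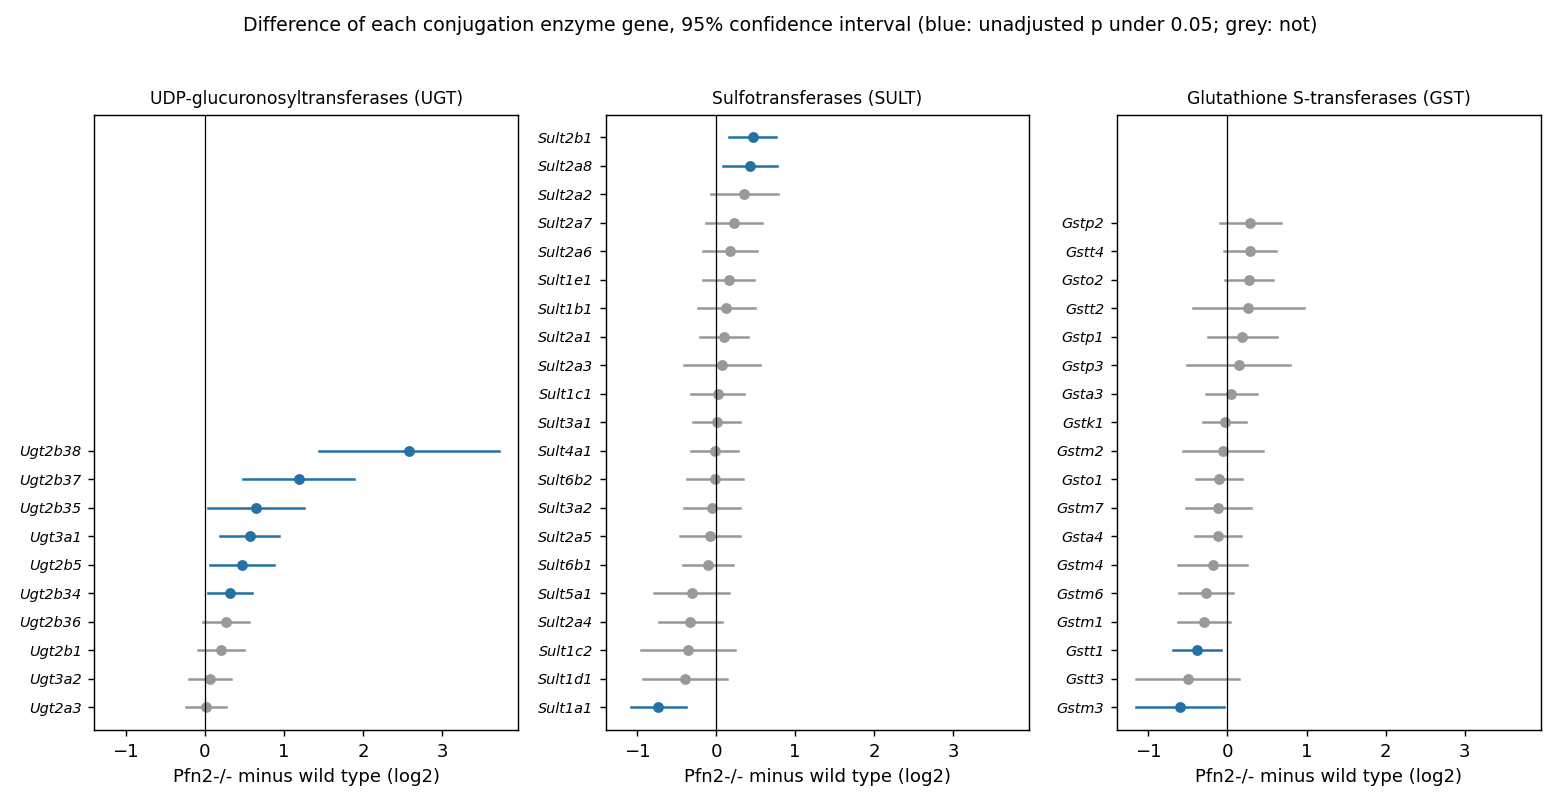
Difference between Pfn2-/- and wild-type liver (x axis, log2 scale) for each of the 10 UGT, 21 SULT and 18 GST genes, as points with 95% confidence intervals of the limma fit, blue where the unadjusted p was under 0.05. All 10 UGT points lie right of 0, while SULT and GST points lie on both sides.

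Glucuronosyltransferase transcripts had a higher mean in Pfn2-/- liver in all 10 genes with a row of their own, by 0.01 to 2.58. Without wild-type replicate 3 this held in 9, as Ugt2a3 was at -0.03. These are Ugt2 and Ugt3 genes, and the Ugt1a symbols, which occur only in rows that name several genes, are not covered. Ugt2b38 had the largest difference of all members. It lay at 7.24, 5.07 and 6.02 in Pfn2-/- liver, against 4.44, 3.05 and 3.11 in wild type. The groups did not overlap, and 2 of the 3 wild-type values were below the lower quartile of their arrays (3.51 to 3.57 over arrays), so its difference, 2.58 (SE 0.51, adjusted p = 0.543, with a 95% confidence interval of 1.44 to 3.72), is not an exact fold. Ugt2b37, separated from Ugt2b38 by Ugt2a3 in gene order, lay at 4.68, 3.77 and 5.22 in Pfn2-/- liver, against 3.38, 3.66 and 3.07 in wild type. That row was dim in wild type too, and the groups came closest at Pfn2-/- replicate 2 and wild-type replicate 2, which were 0.11 apart. The difference was 1.19 (SE 0.31, interval 0.49 to 1.89, adjusted p = 0.746).

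The other Ugt2b rows were bright in both genotypes and differed less. Ugt2b5, the third gene with the shared promoter run, lay at 10.03, 9.86 and 10.28 in Pfn2-/- liver, against 9.45, 9.36 and 9.95 in wild type. Wild-type replicate 3 reached above the lowest Pfn2-/- array, and the difference was 0.47 (SE 0.18, adjusted p = 0.915). Ugt2b35 lay at 8.83, 8.46 and 8.86 in Pfn2-/- liver, against 7.56, 7.89 and 8.78 in wild type. Here too wild-type replicate 3 sat among the Pfn2-/- values, with a difference of 0.64 (SE 0.27, adjusted p = 0.92) that came to 0.99 without that array and to 0.38 without wild-type replicate 1. Ugt2b34 lay at 11.14, 11.01 and 11.26 in Pfn2-/- liver, against 10.72, 10.86 and 10.89 in wild type. Its groups did not overlap, although the difference was only 0.31 (SE 0.12, adjusted p = 0.915).

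Ugt2b36 and Ugt2b1 also had groups that did not overlap, without reaching an unadjusted p of 0.05. Ugt2b36 lay at 10.09, 9.77 and 9.95 in Pfn2-/- liver, against 9.58, 9.70 and 9.74 in wild type (difference 0.26, SE 0.13). Ugt2b1 lay at 12.51, 12.47 and 12.52 in Pfn2-/- liver, against 12.31, 12.12 and 12.46 in wild type (difference 0.20, SE 0.13). Pfn2-/- replicate 2 was only 0.01 above wild-type replicate 3 in that row. Ugt2a3, which lies between Ugt2b37 and Ugt2b38 in gene order, did not follow them. It was at 9.35, 9.38 and 9.38 in Pfn2-/- liver, against 9.42, 9.38 and 9.28 in wild type, a difference of 0.01 with an interval of -0.24 to 0.26.

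The Ugt3 genes encode enzymes that in human use sugar donors other than UDP-glucuronic acid. Ugt3a1 lay at 8.57, 7.92 and 8.13 in Pfn2-/- liver, against 7.73, 7.62 and 7.57 in wild type. Every Pfn2-/- array was above every wild-type array, with a difference of 0.57 (SE 0.17, adjusted p = 0.791), which corresponds to 1.48-fold. Its neighbour Ugt3a2 lay at 9.43, 9.21 and 9.36 in Pfn2-/- liver, against 9.31, 9.25 and 9.25 in wild type, with overlapping groups and a difference of 0.063 (SE 0.12). In all, groups did not overlap in 6 of 10 UGT genes, all higher, against 5.09% of all genes in that direction.

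**Figure D2:**
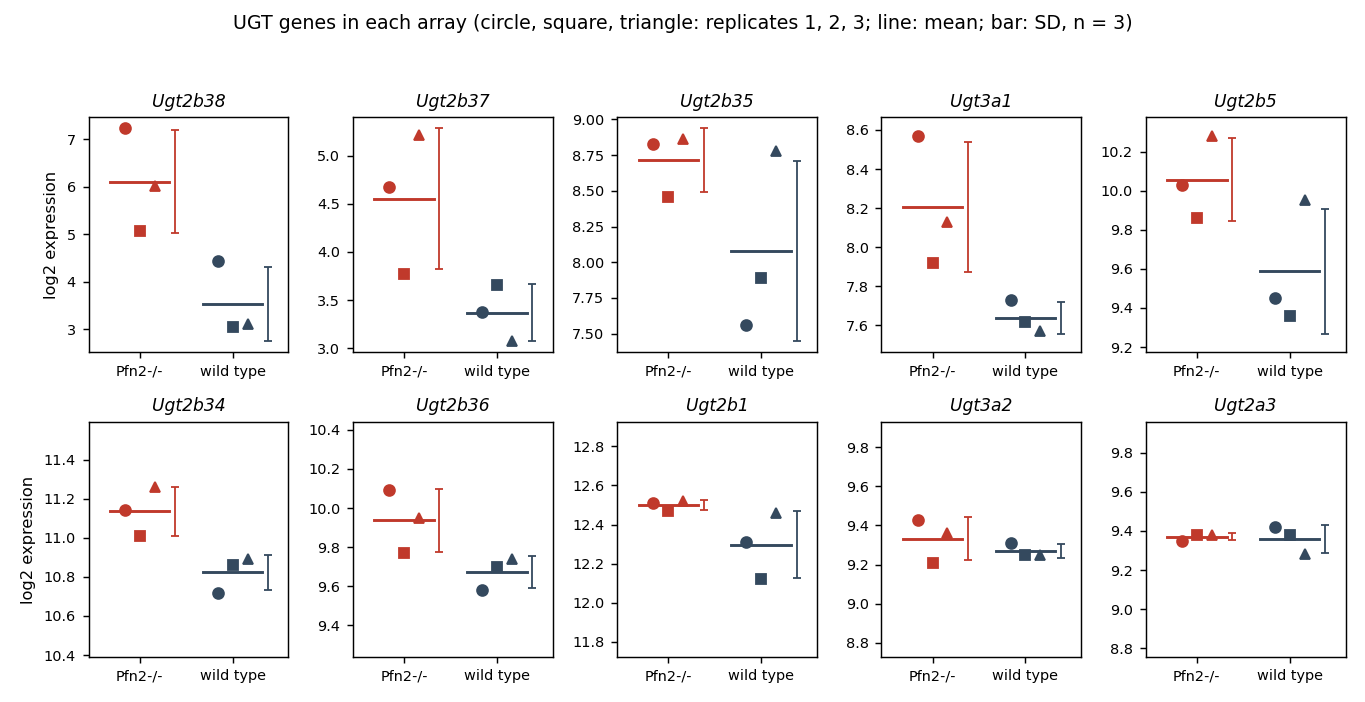
Expression (y axis, log2 scale, a separate range per gene) of the 10 UGT genes in each Pfn2-/- (red) and wild-type (dark) array, with group mean and SD over 3 arrays; symbols give the replicate. Squares, Pfn2-/- replicate 2, are the lowest Pfn2-/- value in all panels but Ugt2a3.

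Arrays of one genotype took a like order in many UGT genes. Pfn2-/- replicate 2 had the lowest Pfn2-/- value in 9 of the 10 genes, including 7 of 7 Ugt2b genes. Wild-type replicate 3 had the highest wild-type value in 5 of the 7 Ugt2b genes, but not in Ugt2b37 or Ugt2b38. Centred on each gene's mean, the median over UGT genes was 0.25, 0.022 and 0.24 in Pfn2-/- arrays, against -0.24, -0.29 and -0.075 in wild-type arrays. The acute-phase gene Saa2, named after its values were seen, was also lowest in replicate 2 among Pfn2-/- arrays, at 10.83, 7.31 and 12.22, against 7.80, 7.11 and 6.76 in wild type. Its part in the UGT values was not tested. The count of UGT genes at an unadjusted p under 0.05 was 3 without Pfn2-/- replicate 1 or 3 or wild-type replicate 1 or 2, 6 without wild-type replicate 3 and 7 without Pfn2-/- replicate 2. The share of all genes under 0.05 moved too. It was 4.37%, 6.57% and 5.84% without Pfn2-/- replicates 1, 2 and 3, and 4.08%, 4.02% and 7.03% without wild-type replicates 1, 2 and 3. Ugt2b38, Ugt2b37 and Ugt3a1 were below 0.05 in all 6 cases, and Ugt2b5, Ugt2b34 and Ugt2b35 in 2.

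**Figure D3:**
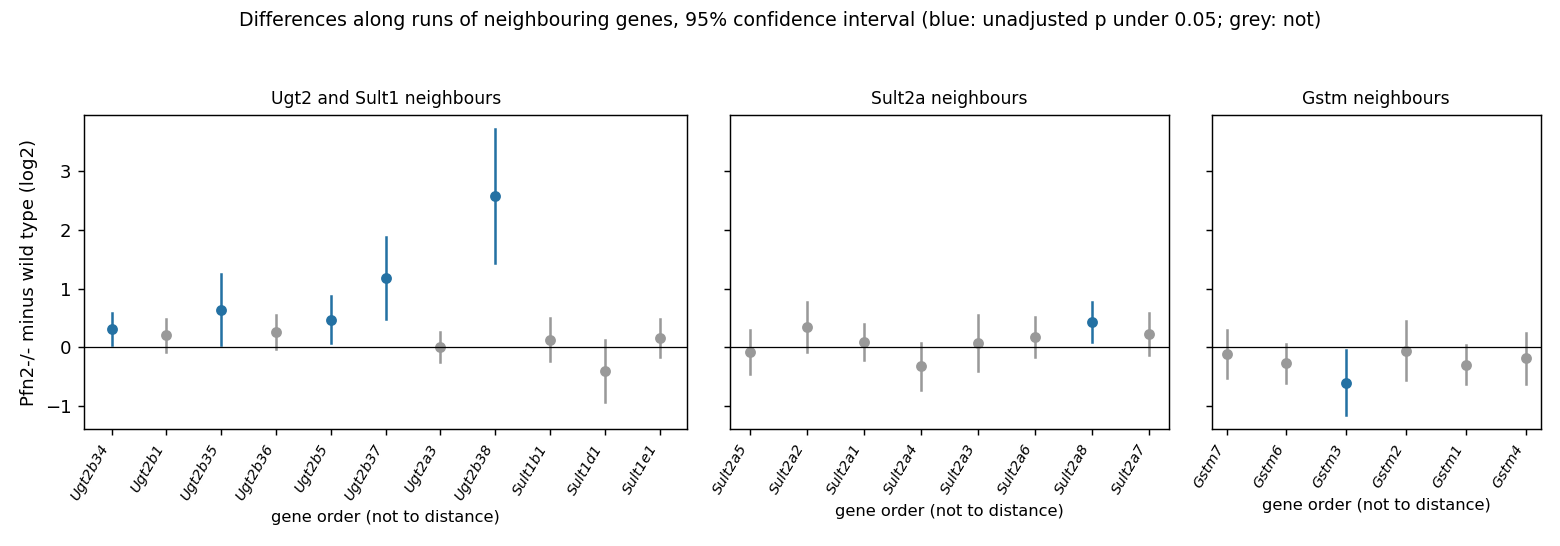
Difference between Pfn2-/- and wild-type liver (y axis, log2 scale) with 95% confidence interval for members in their order along 3 runs of neighbours (x axis, order of members only), blue where the unadjusted p was under 0.05. The Ugt2b genes are above 0, the Sult1 genes beside them on both sides of 0, and all 6 Gstm genes below 0 over the 6 arrays.

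Sulfotransferase transcripts differed in both directions. Sult1a1, the phenol sulfotransferase, lay at 9.35, 9.46 and 9.16 in Pfn2-/- liver, against 10.22, 10.18 and 9.77 in wild type. All Pfn2-/- arrays were below all wild-type arrays, and the difference was -0.73 (SE 0.15, interval -1.08 to -0.39, adjusted p = 0.621), or 1.66-fold lower. It stayed between -0.88 and -0.65 when any single array was left out. Sult1d1, an enzyme that sulfates catecholamines in mouse, lay at 8.96, 8.77 and 9.54 in Pfn2-/- liver, against 9.58, 9.83 and 9.05 in wild type. The third replicate of each genotype sat within the range of the other genotype, and the difference of -0.40 (SE 0.24) did not reach an unadjusted p of 0.05. Sult1b1, Sult1c1, Sult1c2 and Sult1e1, the last an estrogen sulfotransferase, differed by -0.36 to 0.16, with 0 of 4 at an unadjusted p under 0.05. Sult1b1, Sult1d1 and Sult1e1 come after Ugt2b38 in the order of the members, which leaves out genes without a row of their own. Their differences were 0.13, -0.40 and 0.16.

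Of the hydroxysteroid sulfotransferases, Sult2a8, which sulfates bile acids in mouse liver, was the bright one. It lay at 11.11, 10.91 and 11.27 in Pfn2-/- liver, against 10.55, 10.54 and 10.92 in wild type. Wild-type replicate 3 was 0.01 above the lowest Pfn2-/- array, and the difference was 0.43 (SE 0.15, adjusted p = 0.915), or 1.34-fold. It was under an unadjusted p of 0.05 in 3 of 6 fits with 1 array left out, and not without Pfn2-/- replicate 3 (0.34), wild-type replicate 1 (0.37) or wild-type replicate 2 (0.36). The other 7 Sult2a genes gave dim rows, at 2.07 to 4.01 in Pfn2-/- and 1.79 to 4.28 in wild-type arrays, with differences of -0.33 to 0.35 and 0 of 7 at an unadjusted p under 0.05. Sult2b1, whose product sulfates cholesterol and related sterols, lay at 3.80, 3.78 and 3.77 in Pfn2-/- liver, against 3.45, 3.42 and 3.10 in wild type. The groups did not overlap (difference 0.46, SE 0.13, adjusted p = 0.788), but this row was dim, with all wild-type values below the lower quartile of the arrays. Sult3a1, Sult3a2, Sult4a1, Sult6b1 and Sult6b2 lay at 1.82 to 3.72 in Pfn2-/- and 1.72 to 3.64 in wild-type arrays and differed by -0.11 to 0.0067. Sult5a1 differed by -0.31 (SE 0.21). In all, 15 of the 21 SULT rows lay at or below the median gene, and Sult2b1 was the 1 of these at an unadjusted p under 0.05. SULT genes at an unadjusted p under 0.05 numbered 5 without Pfn2-/- replicate 2 or wild-type replicate 3, 2 without wild-type replicate 2 and 3 without any other single array. Of all genes, 6.57% were under 0.05 without Pfn2-/- replicate 2, 7.03% without wild-type replicate 3 and 4.02% without wild-type replicate 2.

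Glutathione transferase transcripts had no gene at an unadjusted p under 0.05 in the higher direction, and 2 in the lower, Gstm3 and Gstt1. Without wild-type replicate 3 neither was, and the 1 GST gene under 0.05 was Gstp2, higher in Pfn2-/- (0.42). Without Pfn2-/- replicate 2 only Gstt1 remained. Without Pfn2-/- replicate 1 Gsto2 (0.38) and without Pfn2-/- replicate 3 Gstt2 (0.72) were higher at an unadjusted p under 0.05. Other GST genes came under 0.05 in the lower direction. They were Gstt3 (-0.72) without Pfn2-/- replicate 3, Gstm6 (-0.40) without wild-type replicate 1 and Gstm1 (-0.395) without wild-type replicate 2. The mu class, which is one run of neighbouring genes, was below 0 in 6 of 6 members, at -0.60 to -0.06 with a median of -0.23, but in 3 of 6 without Pfn2-/- replicate 3, and in 5 without Pfn2-/- replicate 2 or without wild-type replicate 3, where Gstm2 was at 0.068 and 0.13. Gstm3 lay at 8.24, 8.12 and 7.82 in Pfn2-/- liver, against 8.27, 8.41 and 9.30 in wild type. The groups did not overlap by a margin of 0.03, and the difference of -0.60 (SE 0.25, adjusted p = 0.92) was -0.28 without wild-type replicate 3. Gstm1 lay at 8.25, 8.27 and 8.08 in Pfn2-/- liver, against 8.43, 8.29 and 8.76 in wild type, also apart by a small margin (difference -0.29, SE 0.15). Gstm2, Gstm4, Gstm6 and Gstm7 had overlapping groups and differences of -0.06, -0.19, -0.27 and -0.12.

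The theta class was split. Gstt1 lay at 8.19, 8.18 and 8.33 in Pfn2-/- liver, against 8.48, 8.54 and 8.83 in wild type. All Pfn2-/- arrays were below all wild-type arrays, with a difference of -0.38 (SE 0.13, interval -0.68 to -0.083, adjusted p = 0.895). It was not under an unadjusted p of 0.05 without Pfn2-/- replicate 1 (-0.36) or without wild-type replicate 3 (-0.28). Gstt3 lay at 6.56, 6.04 and 6.94 in Pfn2-/- liver, against 6.69, 6.69 and 7.67 in wild type, with overlapping groups and a difference of -0.50 (SE 0.29) that was -0.18 without wild-type replicate 3. Gstt2 and the dim Gstt4 lay above 0, at 0.26 (SE 0.31) and 0.29 (SE 0.15), but Gstt2 was at -0.017, 0.088 and 0.72 without Pfn2-/- replicates 1, 2 and 3, and Gstt4 was at 0.17 without wild-type replicate 3. For Gstt2, Pfn2-/- replicate 3 was the lowest of the 6 arrays, at 6.46 beside 7.93 and 7.72 in replicates 1 and 2, against 7.07, 7.08 and 7.17 in wild type. Gstt4 lay at 4.08, 3.79 and 3.84 in Pfn2-/- liver, against 3.77, 3.70 and 3.38 in wild type.

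In the remaining GST classes the groups overlapped or, in Gsto2, met at 3.50, and 0 of 8 genes were at an unadjusted p under 0.05. Of the pi class, Gstp1 lay at 12.15, 11.88 and 11.83 in Pfn2-/- liver, against 11.81, 11.34 and 12.14 in wild type (difference 0.19, interval -0.25 to 0.63). Gstp2 lay at 9.95, 9.78 and 10.24 in Pfn2-/- liver, against 9.72, 9.41 and 9.97 in wild type (difference 0.29, SE 0.17), and Gstp3 differed by 0.14 (SE 0.29). In both Gstp1 and Gstp2 wild-type replicate 2 was the lowest array. Of the alpha class, Gsta3, known in mouse for detoxifying aflatoxin, lay at 10.88, 10.67 and 11.00 in Pfn2-/- liver, against 10.65, 10.74 and 11.01 in wild type (difference 0.05, interval -0.27 to 0.37). Gsta4, which conjugates lipid peroxidation products, differed by -0.12 (SE 0.13). Gstk1, found in mitochondria and peroxisomes, lay at 10.00, 10.14 and 10.05 in Pfn2-/- liver, against 10.10, 10.21 and 9.98 in wild type (difference -0.033, interval -0.30 to 0.24). The omega genes Gsto1 and Gsto2 differed by -0.10 (SE 0.13) and 0.27 (SE 0.13). Over the GST genes wild-type replicate 3 was the highest wild-type array in 12 of 18.

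**Figure D4:**
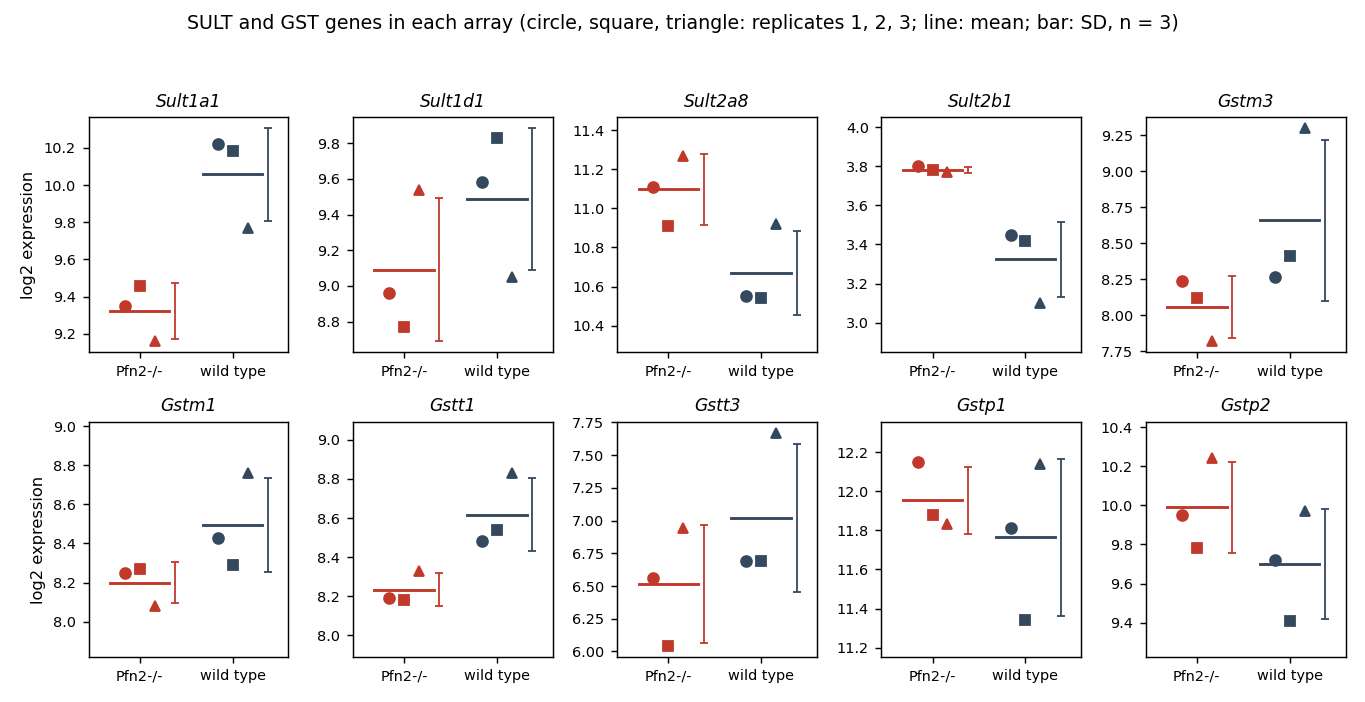
Expression (y axis, log2 scale, a separate range per gene) of 4 SULT and 6 GST genes in each Pfn2-/- (red) and wild-type (dark) array, with group mean and SD over 3 arrays; symbols give the replicate. Sult1a1, Gstt1, Gstm3 and Gstm1 are lower in all 3 Pfn2-/- arrays than in any wild-type array, Gstm3 and Gstm1 by only 0.03 and 0.02. Sult2b1 is higher in all 3. Wild-type replicate 3 (triangle) is the highest wild-type value in all GST panels.

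Genes that supply cosubstrates, carry conjugates or control these enzymes were examined as 10 lists, 118 measured genes in all. At an unadjusted p under 0.05 there were 9 higher and 12 lower, or 17.8% against 5.29% of all genes, and 0 passed the adjusted threshold by limma. The 21 genes became 13 without Pfn2-/- replicate 1 and 35 without wild-type replicate 3, where 4.37% and 7.03% of all genes were under 0.05. For glucuronidation, Ugdh, which makes UDP-glucuronic acid, differed by 0.18 (SE 0.16). Slc35d2, a nucleotide sugar transporter, was the 1 of 6 genes of that list at an unadjusted p under 0.05 (0.45, SE 0.17). For sulfation, the PAPS synthase gene Papss1 lay at 5.19, 5.26 and 5.23 in Pfn2-/- liver, against 6.27, 5.44 and 5.83 in wild type (difference -0.62, SE 0.19, adjusted p = 0.814). The other PAPS synthase gene, Papss2, differed by -0.07 (SE 0.16), and Papss1 was the 1 of 7 at an unadjusted p under 0.05.

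For glutathione, 1 of 12 supply genes was higher and 2 lower at an unadjusted p under 0.05. Gclc, the catalytic subunit of the limiting enzyme of glutathione synthesis, lay at 9.71, 9.63 and 9.54 in Pfn2-/- liver, against 9.04, 9.10 and 9.23 in wild type. Those groups were well apart, with a difference of 0.50 (SE 0.12, adjusted p = 0.714). Mat1a, which makes the methyl donor S-adenosylmethionine, differed by -0.45 (SE 0.12), and the glycine methyltransferase gene Gnmt by -0.53 (SE 0.13). Of the 6 membrane-bound and other glutathione transferase genes 0 were at an unadjusted p under 0.05, with Mgst1 at 0.19 (SE 0.15). Among 18 other conjugating and detoxifying enzymes, the methyltransferase gene Tpmt (0.35) and the glycine conjugation gene Glyat (0.30) were higher, and the arsenic methyltransferase gene As3mt (-0.47), the quinone reductase gene Nqo1 (-0.48) and Gnmt were lower at an unadjusted p under 0.05. Of 16 conjugate transporters, the uptake carrier gene Slco1b2 (0.45) and the efflux pump gene Abcg2 (0.59) were higher and the efflux pump gene Abcc4 (-0.50) lower.

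Among 24 genes of receptors and transcription factors, 1 was higher and 3 were lower at an unadjusted p under 0.05. Esr1, the estrogen receptor gene, lay at 6.64, 6.47 and 7.04 in Pfn2-/- liver, against 7.85, 7.50 and 7.30 in wild type (difference -0.83, SE 0.19, adjusted p = 0.668). Nr1i2, the gene of the xenobiotic receptor PXR, lay at 7.84, 7.71 and 8.13 in Pfn2-/- liver, against 8.41, 8.30 and 8.20 in wild type (difference -0.41, SE 0.14). In both genes all Pfn2-/- arrays were below all wild-type arrays. Cebpb differed by -0.45 (SE 0.15), and the growth hormone receptor gene Ghr by 0.28 (SE 0.12). The CAR gene Nr1i3 (0.16, SE 0.19), Ahr (-0.097, SE 0.22) and the NRF2 gene Nfe2l2 (0.13, SE 0.13) had overlapping groups.

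Known targets of these receptors differed in both directions. Of 15 CAR and PXR targets, Cyp3a11 was higher (0.38, SE 0.14) and Cyp2b10 (-1.27, SE 0.48) and Gadd45b (-0.38, SE 0.13) were lower at an unadjusted p under 0.05. Cyp2b10 lay at 4.35, 4.92 and 5.22 in Pfn2-/- liver, against 6.41, 7.08 and 4.81 in wild type, so wild-type replicate 3 fell among the Pfn2-/- values. Of 7 AHR targets, Aldh3a1 (-0.41, a dim row) and Nqo1 were lower, and none was higher. Of 18 NRF2 targets, Osgin1 (0.78, SE 0.13) and Gclc were higher, and Nqo1 and Abcc4 were lower. The medians of these 3 target lists were 0.067, -0.20 and -0.01, beside 0 over all genes.

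**Figure D5:**
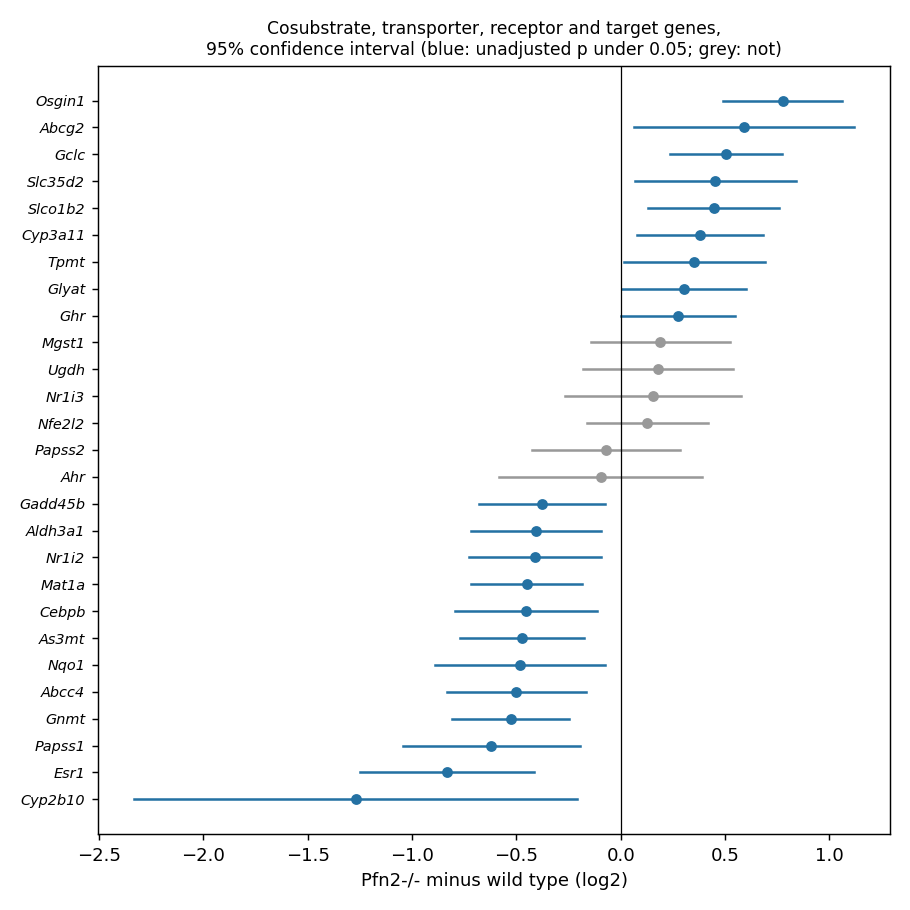
Difference between Pfn2-/- and wild-type liver (x axis, log2 scale) with 95% confidence interval for 27 cosubstrate, transporter, receptor and target genes, blue where the unadjusted p was under 0.05. Grey marks those of the always-shown genes that were not under 0.05. Points lie between -1.27 (Cyp2b10) and 0.78 (Osgin1), with 12 blue genes below 0 and 9 above.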

How the data were processed

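Total RNA of 6 livers was measured on Affymetrix arrays, 3 of Pfn2-/- and 3 of wild-type mice. The submitters' processing notes name RMA and limma, and the authors deposited log2 values with 2 decimals. RMA subtracts background, forces arrays onto a common distribution and combines probes, so a shift shared by all genes is lost and differences of dim rows are understated. Tool versions, probe set level and genome build were not given in the sources used here. Precision is limited by the number of arrays.

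The supplied platform annotation named the rows. Of 34390 rows, 23521 had exactly 1 symbol, and per gene the row of highest mean over the 6 arrays was used, which left 22180 genes. These were fitted together with limma 3.58.1 in R 4.3.3 (lmFit and eBayes, genotype as the sole term, two-sided), with Benjamini-Hochberg adjustment over all of them. Total degrees of freedom were 9.71. The fit was tested on simulated data. The enzyme genes are rows of that fit, with no separate adjustment or set test. The members, the context lists and the rule for genes described one by one were chosen with earlier results of these data known. That rule took members at an unadjusted p under 0.05, the 3 members of highest mean and the 2 of largest difference in each direction per class, and context genes at an unadjusted p under 0.05 plus 8 fixed ones. Other genes named were chosen after their values were seen. Promoter sequences came from a RefSeq table of GRCm38.p6, aligned globally with Biopython 1.88. Alternatives were 3 normalizations, 2 filters on dim genes, 2 choices of row, 2 variance models, array weights, a replicate block, age as a covariate and each array left out in turn.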

Additional observations from a re-analysis of the deposited data

How the results depend on the processing

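Of 18 alternatives, none moved the count of conjugation enzyme genes at an unadjusted p under 0.05 by over 1.5 times (8 to 13 against 11). The share of all genes ranged from 4.02% to 7.22%, and the 2 filters tested only 34 and 31 members. The genes counted changed more than their number. Without Pfn2-/- replicate 3, for example, 6 of 9 were among the 11. Of the 11, only Sult1a1, Sult2b1, Ugt2b37, Ugt2b38 and Ugt3a1 were under 0.05 in all 6 fits with 1 array left out. Of the 16 for which medians were computed, none moved the UGT median (0.31 to 0.47) or the GST median (-0.14 to -0.011) by more than the spread between arrays. Among these, the choices of row, the replicate block and the age covariate could not move any member's difference or sign. Each member has a single row, and replicate numbers and ages are balanced over the genotypes. The 2 filters on dim genes also could not change the difference of a member they kept. The same holds for the 2 variance models, for which no medians were computed. The SULT median of 0.0067 was -0.32 with the filter on dim genes at the lower quartile and -0.34 with that at the median, where most SULT rows are left out by construction, and -0.032 to 0.088 with single arrays left out. All genes at an unadjusted p under 0.05 numbered 682 with the filter at the median, which tests fewer genes, against 1174, and 892 to 1560 with single arrays left out. Genes past the adjusted threshold, 0 in the comparison as reported, numbered 2 with array weights, 7 with the replicate number as a block and 0 to 6 with single arrays left out. With that replicate block Ugt2b38 passed (adjusted p = 0.0114, difference 2.58) and was the only member to pass under any alternative, the adjusted p ranging to 0.998. The same-numbered animals share an age in the labels. Their deviations correlated at -0.082, 0.155 and 0.02, beside -0.171 to 0.181 for animals of unlike number. With so few arrays per genotype these values cannot decide whether the numbers pair the animals. The 21 members followed through the alternatives were picked by p-value, level or size of difference in these same data, which favours a kept sign. Members outside these 21 also changed sign. Gstm2, for example, kept it in 14 of 18 alternatives and Sult1c1 in 11 of 16. Of the 21, 17 kept their sign in all alternatives. The exceptions were Gstp1 (-0.022 to 0.38 with single arrays left out), Gsta3 (-0.025 to 0.16), Gstk1 (-0.092 to 0.023) and Ugt2a3 (-0.03 to 0.04, and -0.011 with array weights), and the cause was not tested. Signal over background limits the dim SULT rows and the sizes for Ugt2b37 and Ugt2b38.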

Other observations

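Rows that name several genes, of which at least 1 belongs to these families, numbered 9. Their differences, Pfn2-/- minus wild type, were -0.59 to 0.32 on the log2 scale, and 1 of the 9 was above 0. In 2 of them all Pfn2-/- arrays were below all wild-type arrays, at 7.70 to 7.92 in Pfn2-/- against 8.25 to 8.52 in wild type, and at 6.81 to 7.07 in Pfn2-/- against 7.26 to 7.31 in wild type. Among the 22180 genes tested, 4.76% were apart in that direction. They were not tested and are not assigned to a gene here.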
